A study of Proteus anguinus with 14 samples.

Results

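Transcripts of transposon origin were drawn from a transcriptome of the olm (Proteus anguinus), a cave salamander with a giant genome, and followed across 6 organs. An assembled gene was included when its annotated name was L1TD1 or its description mentioned a transposon, a reverse transcriptase, a retrovirus or an integrase core, and when it reached a TPM, a length-corrected share of the transcripts in a sample, of at least 1 in at least 2 samples. Of 18924 assembled genes in the deposited table, 3485 matched by annotation and 3072 of them also passed the filter, which is 18.8% of the 16317 genes that passed it in all. The paper kept only assembled genes with a functional annotation, a small part of the assembler's gene groups. Shares of genes and of TPM given here are shares of that kept set. Transposon transcripts left out of it are not counted. The other 413 matches stayed below the filter, 15 of them at 0 in every sample. At the edge of the filter, the second highest TPM was 1.0001 in the lowest member and 0.9997 in the highest match outside, and 199 matches had reached 1 TPM in a single sample. A further 248 members passed through exactly 2 samples, and for 117 of these the 2 samples were both brain samples.

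Retrotransposons copy themselves through an RNA intermediate, and DNA transposons are moved by a transposase. A LINE encodes an RNA-binding protein (ORF1) and a protein with endonuclease and reverse transcriptase domains (ORF2), while LTR elements and endogenous retroviruses carry gag, reverse transcriptase and integrase. Most copies in a genome are broken and silenced by DNA methylation, heterochromatin and small RNAs, some are transcribed as parts of other transcripts, and a few have become genes of the host, such as PEG10 and RTL1 in mammals.

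The samples were brain, gut, heart and skin from 2 animals each and liver and lung from 3, with the animals named p4, p5 and p6. The 3 olms were wild-caught and housed singly before sampling, no treatment or genotype differs between the samples, and age is not given in the labels. RNA was selected for poly(A) tails, and the assembly to which all samples were aligned was built from animal p4 alone. Organs follow the sample titles: in the records' tissue field gut and heart are swapped, as are liver and lung. Summed levels of 3 heart markers (10008 or more against at most 33.5) and of 2 lung markers (233 or more against at most 38.4) follow the titles.

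Reverse transcriptases, which LINEs and LTR elements both encode, were the most frequent annotation. They were described for 2045 transcripts, with no element type given, the LINE-1 ORF1 type made up 504 (359 of the whole set carry the name L1TD1), and 197 were annotated only as RNA-mediated transposition. LTR and retrovirus types numbered 236, DNA transposases 20, and 60 had another description, mostly "transposition" alone. Sorting was by wording, so the 60 include a Harbinger transposase (HARBI1) described as a plant transposon protein. Other HARBI1 transcripts were counted as DNA transposases. The remaining 10 matched only inside annotation fields that run on over several genes, so that their identity is uncertain. Only 47 transcripts had a symbol other than L1TD1, from 13 symbols, and 2657 had none. The members came from 2694 read clusters of the assembler, of which 2387 held a single member, and no cluster held more than 6. Near-identical copies share reads, and how reads were divided between them depends on the authors' alignment.

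Most of these transcripts were scarce. Because a few abundant transcripts shift all TPM of a sample, TPM were divided by a factor per sample, the median ratio to the geometric mean over 13067 genes above 0 everywhere, and are then called normalized TPM. The median of the members' mean levels was 2.37 normalized TPM, against 4.41 for the 13245 other genes, and 37.2% of the members reached 1 TPM in all 14 samples, against 47.9% of the others. Only 52 members had a mean of 100 or more. The brain samples held 2813 and 2814 members at 1 TPM or more, 91.6% in each, and the other samples 1608 to 2411 (52.3% to 78.5%). Of the other genes, 91.3% and 94.1% reached this level in the brain samples and 58.3% to 82.5% elsewhere. These counts are in TPM as deposited, at the cut-off of the filter. Through that filter, 117 members and 497 other genes passed by the 2 brain samples only and so count for brain alone.

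The summed share of TPM was highest in brain. Members held 9.95% of TPM in the brain of p4 and 6.97% in that of p6, against 1.86% to 5.44% (median 3.17%) in the 12 other samples, so that the groups did not overlap and the ratio of means was 2.66. The organ means were 8.46% ± 2.11 (SD, n = 2) in brain, 4.52% ± 1.29 (n = 2) in heart, 3.55% ± 0.38 (n = 2) in gut, 3.38% ± 0.16 (n = 2) in skin, 2.92% ± 0.17 (n = 3) in liver and 2.19% ± 0.40 (n = 3) in lung. Among neighbours in this order, heart and gut, and gut and skin, differed by less than the sum of their SDs.

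A share of TPM also moves with the abundance of everything else. The 10 most abundant other genes took 12.8% and 20.9% of TPM in brain and 30.2% to 67.9% elsewhere, and 2 red blood cell markers alone took 41.9% to 54.5% in lung. With those 10 genes set aside in each sample, members held 11.4% and 8.81% of the remaining TPM in brain and 4.76% to 7.83% elsewhere.

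In normalized TPM the difference was small. The sum was 46578 in the brain of p4 and 32442 in that of p6, and 30725 to 40030 (median 36384) elsewhere. The p4 brain lay above all other samples and the p6 brain within them, and the ratio of means was 1.11. By organ, the sums were 39510 ± 9996 in brain, 38728 ± 1408 in liver, 35562 ± 2637 in gut, 35463 ± 4634 in lung, 34981 ± 3120 in heart and 31718 ± 1404 in skin (SD, n as above), and every pair of neighbours in this order differed by less than the sum of their SDs. The order of organs thus depended on the scaling, which divided every gene of the brain samples by 2.14 and 2.15. From bulk RNA, fewer cells of a type and less RNA per cell cannot be told apart.

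**Figure D1:**
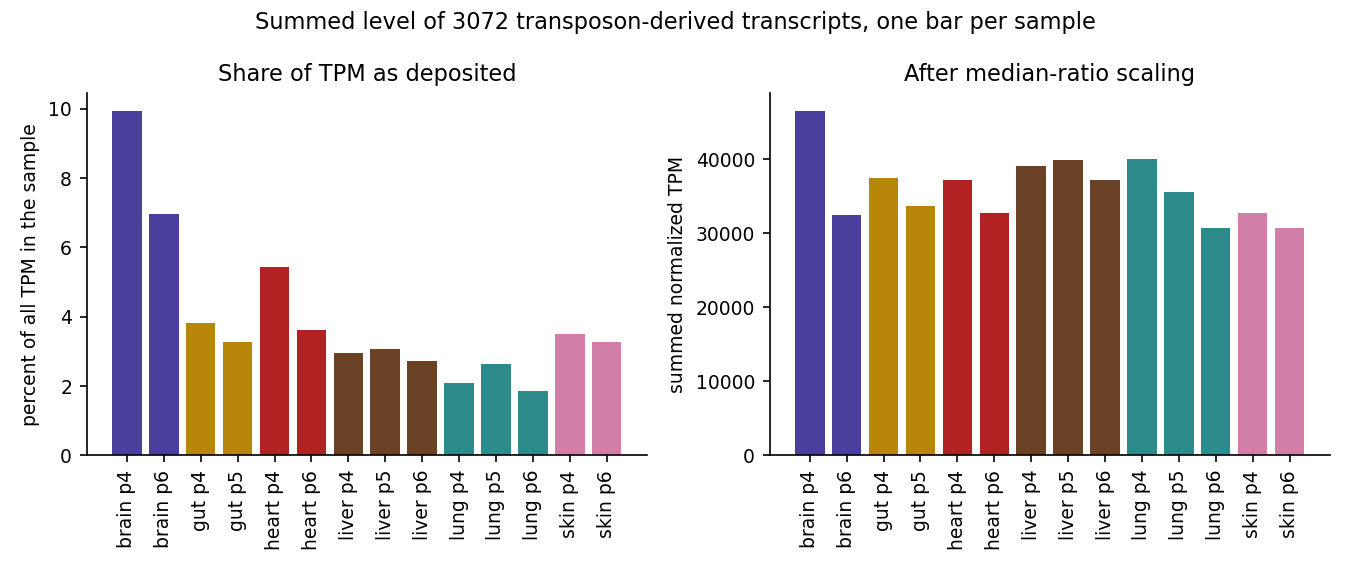
Summed level of the 3072 transposon-derived transcripts in each of the 14 samples, as percent of TPM as deposited (left) and as normalized TPM (right); each bar is 1 sample, coloured by organ. On the left both brain samples (9.95% and 6.97%) stand above all others, and on the right only the p4 brain (46578) does.

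The families differed in how their sums stood in brain. LTR and retrovirus types summed to 3169 and 1945 normalized TPM in brain and to 1501 to 2084 (median 1684) elsewhere, a ratio of means of 1.505. The group with other descriptions summed to 4532 and 2428 in brain and to 1048 to 2727 elsewhere, with a ratio of 1.85. In both the p4 brain was above every other sample and the p6 brain was not. Reverse transcriptase transcripts had a ratio of 1.12 (27932 and 19813 in brain, 17249 to 23856 elsewhere). LINE-1 ORF1 transcripts had a ratio of 0.958, at 6165 and 5164 in brain and 5182 to 6691 elsewhere. RNA-mediated transposition had a ratio of 0.817, at 4370 and 2682 in brain and 2536 to 6124 elsewhere. To this last sum TRINITY_DN5558_c0_g1 alone gave 697 and 726 in brain and 1136 to 4223 elsewhere. In the group with other descriptions TRINITY_DN5340_c1_g1 alone gave 2692 and 1362 in brain and 469 to 1434 elsewhere. The ratios of these families thus rest in large part on 1 transcript each.

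A few transcripts carried much of the sum. The 10 with the highest means held 25.8% and 24.3% of the members' TPM in brain. The highest of the LINE-1 ORF1 type, TRINITY_DN2028_c2_g1 (L1TD1), stood at 2811 and 1981 normalized TPM in brain and 1644 to 2972 elsewhere, so that it was abundant in every organ. The highest reverse transcriptase, TRINITY_DN1932_c1_g1, was at 1565 and 1049 in brain and 589 to 1693 elsewhere. Neither passed the test in any organ.

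The most abundant member of all, TRINITY_DN5558_c0_g1, annotated as RNA-mediated transposition, was lowest in brain. It had 697 and 726 normalized TPM in the brain samples and 1136 to 4223 (median 2606) in the others, with no overlap (log2 fold change −1.73 ± 0.41, SE, with an adjusted p = 0.00911 by limma). Without the p4 or the p6 brain the log2 fold change was similar (−1.69 and −1.75) but the call was lost (adjusted p = 0.209 and 0.0717). With TPM as deposited and after quantile normalization it shrank to −0.43 and −0.76 and was lost as well. By contrast, TRINITY_DN5340_c1_g1, described as transposition, was at 2692 and 1362 in brain and 469 to 1434 elsewhere. Its groups overlapped, and its rise (log2 fold change 1.07 ± 0.35, SE) only just passed, at an adjusted p = 0.0499 from limma, and was lost under several settings (without the p4 brain, adjusted p = 0.767).

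Organs were tested with limma, each against the rest of the samples, on log2(normalized TPM + 1), which understates changes near 0. A transcript was called at an adjusted p under 0.05, over all 16317 genes tested, with a fold change over 2. In brain 296 of the 3072 members were called higher, or 9.64%, against 11.2% of all genes tested. Lower calls numbered 77, or 2.51%, against 3.36%. The median log2 difference was 0.11 for members and 0.04 for all genes, and 57.2% of the members were above 0, against 52.1% of all genes. Neither share of members exceeded the background. The higher calls include 51 of the 117 members that passed the filter only through the 2 brain samples. In TPM as deposited these had to be higher in brain, while the scaling can undo this. With a TPM of at least 1 required in 4 or more samples, 209 members were higher (7.95%, against 9.44% of all genes) and 72 lower (2.74%, against 3.57%). The split depended on the scaling. With TPM as deposited it was 1322 higher and 2 lower (43.0% higher, against 40.3% of all genes). The median of all genes then shifted to 0.97. After quantile normalization it was 239 higher (7.78%, against 10.1%) and 121 lower (3.94%, against 4.33%).

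**Figure D2:**
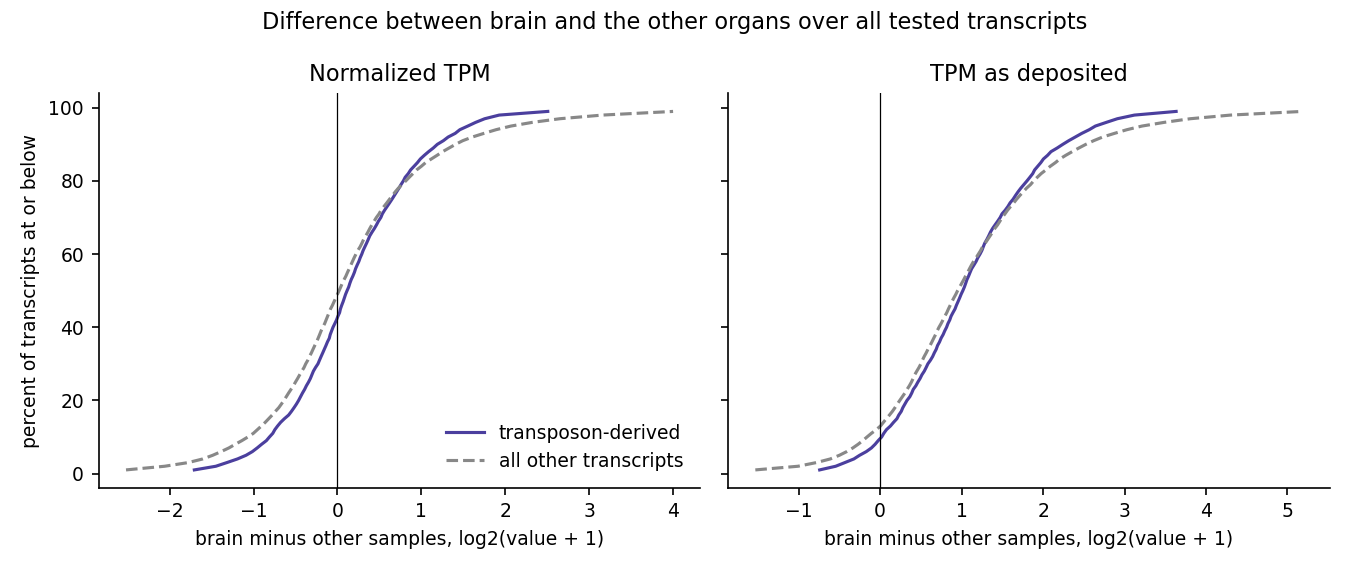
Cumulative distribution of the difference between the brain samples and the 12 others on log2(value + 1), for transposon-derived transcripts (solid) and all other tested transcripts (dashed), for normalized TPM (left) and TPM as deposited (right). Both sets move together to the right without scaling, and the dashed lines extend further at both ends.

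The brain calls depended on both brain samples. Without the p4 brain sample, 28 members were called higher (0.967%, against 2.497% of all genes) and 2 lower. Of these 28, 27 were among the 296. Without the p6 brain 204 were higher (6.98%, against 8.73% of all genes) and 54 lower (1.85%, against 1.91%), and 169 of the 204 were among the 296. In both fits the lone brain sample is assumed to vary like the other samples. The 5 measured neuronal markers summed to 3971 (p4) and 2718 (p6) in brain, in normalized TPM, and to at most 175 elsewhere. The 3 skeletal muscle markers summed to 1536 in the p4 brain and 18062 in the p6 brain, and their part in the difference between the 2 samples was not tested.

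Among the families, LTR and retrovirus types had 38 of 236 called higher in brain (16.1%) and 2 lower, with a median log2 difference of 0.27. Of all genes tested, 11.2% were called higher and 3.36% lower. The group with other descriptions had 11 of 60 higher (18.3%) and 3 lower, with a median of 0.68. RNA-mediated transposition had 21 of 197 higher (10.7%) and 2 lower, and reverse transcriptases had 187 of 2045 (9.14%) and 50. The LINE-1 ORF1 type had the smallest share of higher calls among the families, 36 of 504 (7.14%), with 20 lower (3.97%) and a median of 0.03. Of 20 DNA transposases, 2 were higher. The families were not tested against each other. The LTR and retrovirus calls include members that passed the filter only through the 2 brain samples, and XPR1, which is not of transposon origin. Of this family 14.0% passed the filter in exactly 2 samples, against 8.07% of all members.

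**Figure D3:**
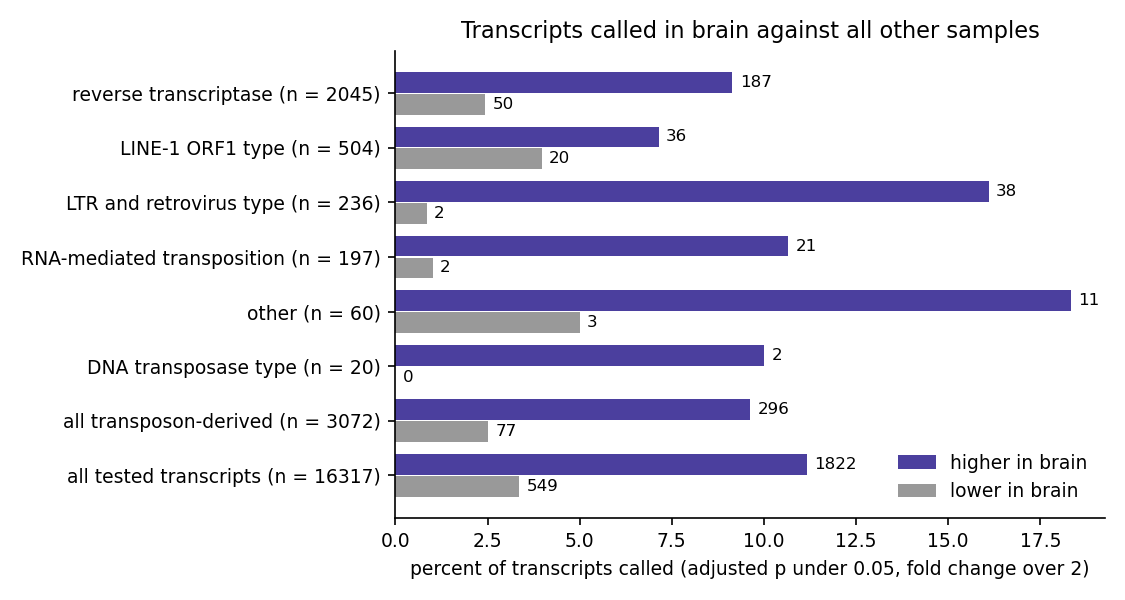
Percent of transcripts called higher (purple) or lower (grey) in brain against all other samples, by annotation family, for the whole set and for all tested transcripts; numbers at the bars are counts. The LTR and retrovirus type (16.1%) and the group with other descriptions (18.3%) lie above the 11.2% of all tested transcripts, and the LINE-1 ORF1 type (7.14%) below it. The LTR and retrovirus calls include XPR1, which is not of transposon origin, and members that passed the filter only through the brain samples.

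Of the largest rises in brain, most were of transcripts at a few normalized TPM or less elsewhere. TRINITY_DN715_c0_g1, a reverse transcriptase, was at 94.4 and 43.7 normalized TPM in brain and 0.41 to 1.37 (median 0.76) in the other samples (log2 fold change 5.19 ± 0.27, SE, with an adjusted p = 3.56e-09 by limma). TRINITY_DN73211_c0_g2, also a reverse transcriptase, was present everywhere at a low level and higher in brain, with 236 and 103 against 4.67 to 13.1 (log2 fold change 4.07 ± 0.35, SE). TRINITY_DN18106_c1_g5 (51.0 and 32.1 against 0.50 to 3.37) and TRINITY_DN6581_c0_g2 (37.7 and 18.9 against 0.40 to 2.12) were further reverse transcriptases of this kind. TRINITY_DN89851_c0_g1, a gag protein, was at 48.9 and 27.3 in brain and 0 to 6.33 elsewhere (log2 fold change 4.25 ± 0.61, SE). None of these groups overlapped, and all 5 calls also passed without the p4 brain sample.

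Of the 47 transcripts with a symbol other than L1TD1, 12 were called higher in brain and none lower, beside 11.2% and 3.36% of all genes. Of these 12, 5 passed the filter only through the 2 brain samples. The filter thus set their direction in TPM as deposited, and the counts per symbol are a description. They are named after mammalian relatives, and the symbol does not identify an olm ortholog. PEG10, in mammals a gag-pol-derived gene required for the placenta, had 6 transcripts, 3 of them higher. The most abundant, TRINITY_DN71783_c0_g2, was at 107.8 and 31.9 normalized TPM in brain and 0 to 4.39 (median 1.34) elsewhere (log2 fold change 4.73 ± 0.60, SE, with an adjusted p = 4.94e-05 by limma). The other PEG10 transcripts called higher, TRINITY_DN250330_c0_g1 and TRINITY_DN256362_c0_g1, passed the filter only through brain. Both of these calls were lost after quantile normalization and with a pseudocount of 5. RTL1, a related gag-derived gene of mammals, had 15 transcripts, 5 of them higher in brain. TRINITY_DN42062_c0_g1 was at 12.7 and 5.71 against 0.42 to 2.28, and TRINITY_DN94976_c0_g3 at 14.0 and 11.8 against 1.20 to 5.70. The other 3, which passed only through brain, were at 3.56 or less in brain and 1.22 or less elsewhere. Another RTL1 transcript, TRINITY_DN11522_c0_g4, was instead highest in lung, at 34.0, 15.7 and 17.7 against 0.24 to 13.3 (log2 fold change 2.61, adjusted p = 0.0409 from limma). This call was lost without any 1 of the lung samples (adjusted p = 0.277 without p4). It was also lost under several other settings, among them TPM as deposited, a pseudocount of 0.1 and leaving out either brain or either skin sample.

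NYNRIN, which in mammals joins a NYN domain to a retroviral integrase, had 4 transcripts, 2 of them higher in brain. TRINITY_DN45243_c0_g2 was nearly equal in both brains, at 24.85 and 25.01, against 3.09 to 13.8 elsewhere (log2 fold change 1.89, adjusted p = 0.00211 from limma, 0.0787 without the p4 brain), and TRINITY_DN92773_c0_g1 was at 9.40 and 3.998 against 0 to 1.93. TIGD3, derived from a pogo-like DNA transposase, was at 6.11 and 2.16 against 0.39 to 1.43. XPR1 (59.4 and 19.8 against 1.78 to 4.68, log2 fold change 3.15) is a phosphate exporter of the host that also serves as a retrovirus receptor and entered through its description, and it is not of transposon origin. Of these symbol-bearing calls, those of TRINITY_DN71783_c0_g2 and XPR1 also passed without the p4 brain sample, while 5 low transcripts then no longer met the filter.

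Symbols of endogenous retrovirus envelopes did not pass in brain. One of the 3 ERVFRD-1 transcripts, TRINITY_DN45708_c0_g1, was highest in animal p5 in each organ where p5 was sampled. The transcript was at 344 normalized TPM in the gut titled p5, 148 and 111 in the p5 and p6 lung and 120 in the p5 liver. It was at 30.9 in the p4 gut, 21.3 in the p4 lung and 13.2 in the p4 liver, with the p6 liver at 16.1. The brain samples had 38.3 and 28.2. ZCCHC5, a further gag-derived gene, was at 273 and 160 in its most abundant transcript in brain and 29.7 to 195 elsewhere (TRINITY_DN14562_c0_g2, adjusted p = 0.134 from limma).

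**Figure D4:**
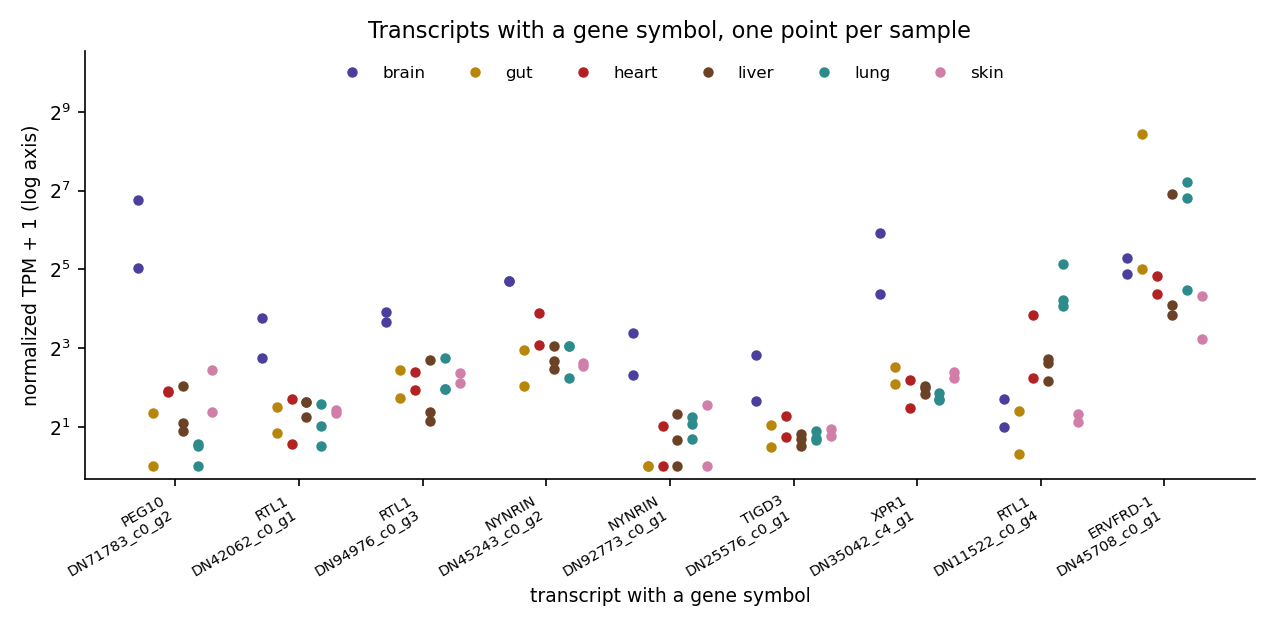
Normalized TPM + 1 on a log axis for 9 transcripts with a gene symbol; each point is 1 sample, coloured and offset by organ. The first 7 have both brain points above all others, as for PEG10 (107.8 and 31.9 against at most 4.39), the eighth is highest in lung, and the ninth (ERVFRD-1) varies within gut, liver and lung.

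The largest falls in brain were smaller. TRINITY_DN47216_c2_g1, annotated as RNA-mediated transposition, was at 1.87 and 7.81 normalized TPM in brain and 9.23 to 77.3 (median 26.7) elsewhere (log2 fold change −2.44 ± 0.60, SE, with an adjusted p = 0.0112 by limma). TRINITY_DN147367_c0_g2, a reverse transcriptase, was at 1.13 and 2.87 against 4.88 to 29.7 (log2 fold change −2.43 ± 0.60, SE). TRINITY_DN353040_c0_g1, also a reverse transcriptase, was at 4.57 and 9.85 normalized TPM in brain and 15.5 to 62.3 (median 34.6) elsewhere (log2 fold change −2.17 ± 0.39, SE, with an adjusted p = 0.00123 by limma). In all 3 the brain samples lay below all others. Without the p4 brain sample the log2 fold changes were −1.62, −1.97 and −1.68 and the calls were lost (adjusted p = 0.484, 0.362 and 0.141). With TPM as deposited those of the first and the third were lost.

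By the organ with the highest mean normalized TPM, brain led for 974 members (31.7%), followed by heart (16.9%), liver (15.1%), gut (14.4%), lung (12.5%) and skin (9.44%). For the other genes the shares were 28.6% in brain, 12.9% in heart, 12.1% in liver, 18.0% in gut, 12.02% in lung and 16.4% in skin. With TPM as deposited brain led for 64.9% of the members and 58.3% of the other genes. On that scale brain had to lead for 117 members and 497 other genes, which passed the filter only through the 2 brain samples. All counts by top organ given here include them. Both brain samples lay above every other sample for 348 members (11.3%), against 13.1% of all genes, and did so by more than 4-fold for 33 (1.07%, against 2.97% of the other genes). LTR and retrovirus types were highest in brain for 41.5% of transcripts.

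Fewer members were called in the other organs. In gut 27 were called higher (0.88%, against 1.86% of all genes), in liver 48 (1.56%, against 2.29%), in skin 24 (0.78%, against 1.94%), in heart 14 (0.46%, against 0.723%) and in lung 14 (0.46%, against 0.821%). Each share lay below that of all genes tested. A fit of 6 organ means, in which each organ is set against the mean of the others, called 74 in gut (2.41%, against 5.58% of all genes), 86 in liver (2.799%, against 4.596%), 57 in skin (1.86%, against 5.23%), 80 in heart (2.604%, against 3.49%) and 47 in lung (1.53%, against 2.67%).

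In gut TRINITY_DN13379_c0_g3, a reverse transcriptase, was at 352 and 499 normalized TPM and at most 1.72 in the other 12 samples (log2 fold change 7.82 ± 0.31, SE, with an adjusted p = 3.1e-10 by limma). TRINITY_DN1187_c0_g1 was at 194 and 134 in gut and 2.72 to 10.6 elsewhere. In skin TRINITY_DN93_c24_g1 was at 419 and 172 and at most 21.0 elsewhere (log2 fold change 4.79 ± 0.53, SE). TRINITY_DN1565_c14_g1 was shared by skin (131 and 47.7) and brain (16.7 and 15.1), with at most 2.09 in the other organs, and its call in skin was lost without the p4 skin (adjusted p = 0.236).

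In liver the leading transcripts were also found in 2 of the 3 lungs. TRINITY_DN108895_c1_g1, a reverse transcriptase, was at 984, 614 and 533 normalized TPM in liver, at 160 and 77.1 in the p5 and p6 lung, at 3.15 in the p4 lung and at most 5.85 in the other organs (log2 fold change 6.64 ± 1.09, SE, with an adjusted p = 0.00281 by limma). TRINITY_DN26024_c0_g2 was at 254, 279 and 166 in liver and at 0.89, 59.1 and 37.9 in the lungs of p4, p5 and p6. The 4 liver markers summed to 362 in the p4 lung and to 19599 and 14621 in those of p5 and p6, so that they moved with both transcripts, and their part in the result was not tested. TRINITY_DN2429_c2_g1, described as a plant transposon protein, was at 807, 485 and 830 in liver and 241 and 148 in brain, and its call in liver was lost without any 1 of the liver samples.

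In lung TRINITY_DN132395_c3_g1, a reverse transcriptase, was at 97.3, 156 and 109 normalized TPM against 1.08 to 21.1 elsewhere (log2 fold change 4.46 ± 0.55, SE, with an adjusted p = 0.000726 by limma). TRINITY_DN121177_c0_g1, related to Tigger DNA transposons, was at 90.5, 136 and 124 against 7.75 to 37.3. Both were above every other sample in all 3 lungs. In heart TRINITY_DN8266_c0_g1 was at 206 and 112 against 8.31 to 64.8, but its call did not pass without either heart sample (adjusted p = 0.723 without p4).

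**Figure D5:**
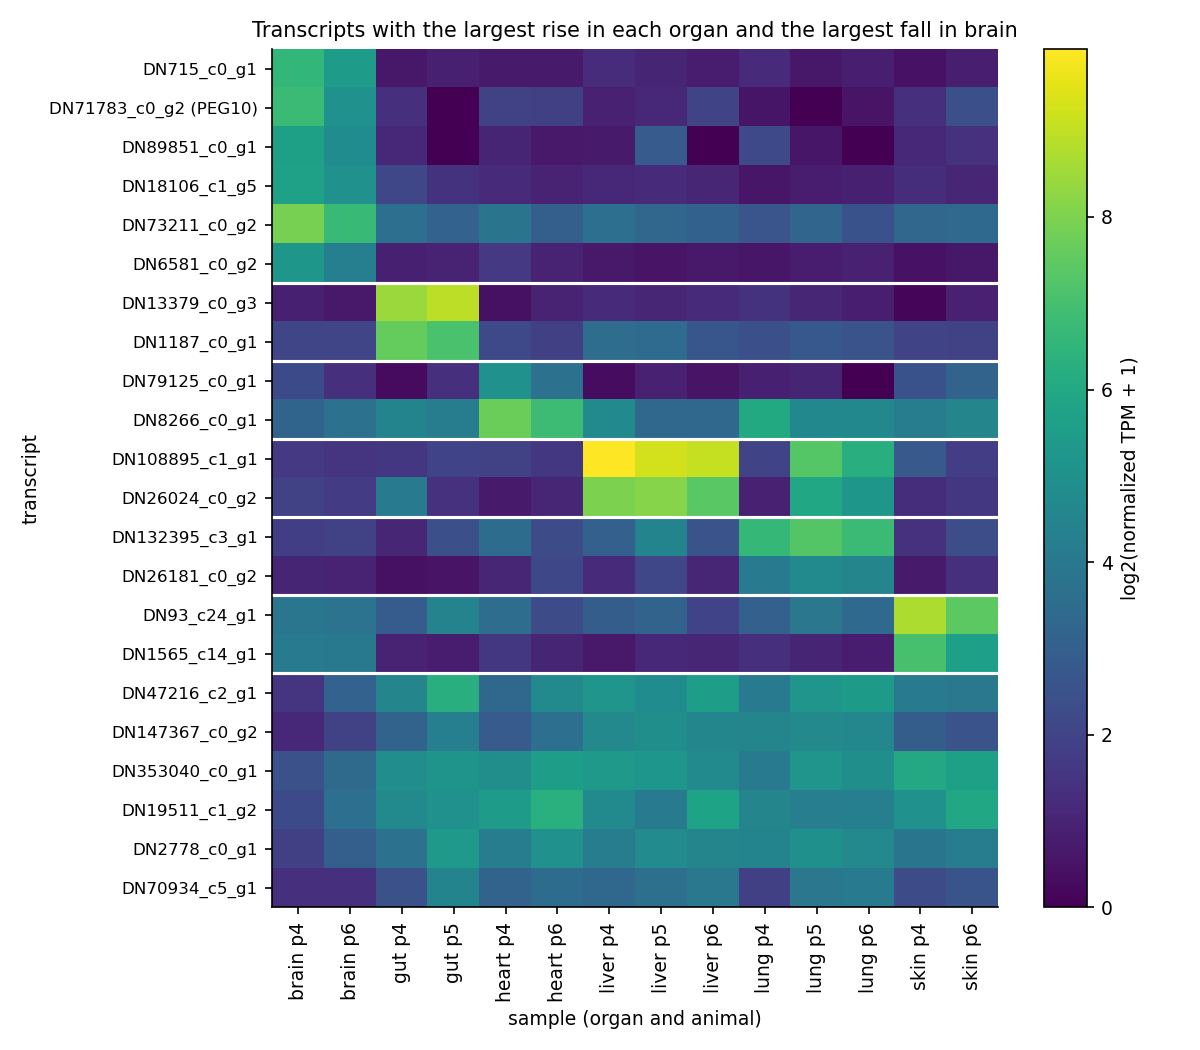
Log2(normalized TPM + 1) of the transcripts with the largest rise in each organ (blocks from top: brain, gut, heart, liver, lung, skin) and the largest fall in brain (bottom block); columns are the 14 samples. Each block is brightest in its own organ, and the 2 liver transcripts are also bright in the p5 and p6 lung.

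Since the assembly came from animal p4, the animals were compared within organs. In brain the median log2 difference of p4 over p6 was 0.13 for members (60.3% higher in p4) and 0.10 for the other genes (56.6%). In lung members were higher in p4 than in p6 for 59.9%, against 48.2% of the other genes, and higher than in p5 for 53.2%, against 47.3%. In liver the shares were 45.0% over p6, against 53.9%, and 49.5% over p5, against 49.6%. In gut, heart and skin 45.9% to 49.4% of the members were higher in p4, against 48.9% to 52.2% of the other genes. The RNA-mediated transposition family had a median difference of 0 or more towards p4 in each of these comparisons. Of its transcripts, 68.5% were higher in p4 in brain, 60.4% in gut, 60.9% in heart and 54.8% in skin. In liver the shares were 48.2% and 51.8% (against p5 and p6) and in lung 54.8% and 62.4%. The group with other descriptions leaned further to p4 in brain (81.7% higher, median 0.55). Its shares were 65.0% in gut, 61.7% in heart and 40.0% in skin. In liver they were 36.7% and 41.7% (against p5 and p6) and in lung 61.7% and 60.0%.

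Genes of pathways that act on transposons were read from 4 lists. The lists held 24 (piRNA pathway), 23 (heterochromatin), 13 (DNA methylation) and 30 genes (RNA and cDNA restriction). Of these, 13, 10, 5 and 13 were measured, so that each list is covered only in part. Their calls in brain are given beside 11.2% higher and 3.36% lower of all genes tested. Of 13 measured genes of the piRNA pathway, which guides silencing by small RNAs, 1 was higher in brain and none lower (median log2 difference 0.26). It was TDRKH, which tethers piRNA processing to mitochondria in mouse, at 31.0 and 22.0 normalized TPM against 0.80 to 14.2 elsewhere (log2 fold change 2.39, adjusted p = 0.0279 from limma). Genes of this list that were not called went in both directions. PIWIL2, a piRNA-binding protein, was at 0.26 and 0.71 in brain and 0.43 to 2.43 elsewhere (log2 fold change −0.72, adjusted p = 0.124 from limma). PIWIL4 was at 1.22 and 1.25 in brain and 0 to 2.92 elsewhere (log2 fold change 0.49, adjusted p = 0.439 from limma). GTSF1 was higher in brain (log2 fold change 0.86, adjusted p = 0.00202 from limma), but its fold change was not over 2. Of 10 genes of heterochromatin silencing, ATF7IP, a partner of the histone methyltransferase SETDB1, was higher (10.4 and 5.41 against 2.03 to 4.89) and none lower. The 5 measured genes of DNA methylation include TET2 and TET3, which act in its removal. None of the 5 was called by limma in either direction. At an unadjusted p under 0.05 by limma, 1 was higher (TET2, log2 fold change 0.77) and none lower. At that cut-off 3215 of all 16317 genes tested were higher in brain and 1532 lower. The piRNA list then had 2 higher and 1 lower, and the heterochromatin list 1 higher and none lower.

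Of 13 measured genes of the list for RNA and cDNA restriction, 4 were lower in brain at an unadjusted p under 0.05 by limma and none higher. At that cut-off 1532 of all 16317 genes tested were lower and 3215 higher. Of the 13 genes, none was called higher and 2 were called lower. They were RNASEH2B (14.6 and 21.6 normalized TPM against 29.4 to 74.5, log2 fold change −1.58) and RNASEH2C (27.1 and 26.7 against 40.6 to 132.8, log2 fold change −1.41), subunits of the enzyme that cuts RNA in RNA-DNA hybrids. For both the groups did not overlap, and their effect on transposons was not tested. Without the p4 brain sample the calls of all 4 named genes were lost (adjusted p from 0.166 to 0.568), at log2 fold changes of 2.14 for TDRKH, 0.68 for ATF7IP, −1.30 for RNASEH2B and −1.41 for RNASEH2C. Without the p6 brain those of TDRKH and RNASEH2C were lost (adjusted p = 0.106 and 0.0926), and with TPM as deposited those of both subunits. The 7 measured germ cell markers summed to 8.75 and 9.18 normalized TPM in brain and to 9.17 to 54.6 elsewhere.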

How the data were processed

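RNA of 14 samples was sequenced by the authors from NEBNext Ultra II libraries, trimmed with Cutadapt and Trimmomatic, aligned with BWA to the longest transcript per annotated gene of a Trinity assembly and counted with featureCounts. The authors deposited TPM for 18924 assembled genes. How TPM were computed is not given in the sources used here, and TPM keep no depth, so that the precision rests on the spread between samples and no count model was fitted.

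Organs were tested in limma 3.58.1 under R 4.3.3 each against the rest of the samples, on log2(normalized TPM + 1), with variances that follow a trend and Benjamini-Hochberg adjustment over 16317 genes, and without a term for the animal. The procedure was tested on simulated data. Transcripts are named where they are among the 3 highest of a family, the 6 largest rises or falls in brain or the 2 largest rises in another organ, or carry a symbol and are called or among the 6 highest, and the text gives a part of these, chosen after their values were seen. Members and lists were chosen with earlier results of these data known.

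Descriptions of 22 genes run on over several annotation lines, and such genes were left out of the pathway and marker lists. No annotation was given for 1077 genes. The samples of 1 animal are paired by their titles. Deviations from the organ means correlated at 0.16 on average over 28 pairs from the same animal and at −0.08 over 53 pairs from different animals. In organs with 2 samples the deviations mirror each other, so that the negative value follows in part from the positive one. A supplement of the study gives another animal for the second gut and the second heart sample. No sequences are shown.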

Additional observations from a re-analysis of the deposited data

How the results depend on the processing

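Of the counts, ratios and shares, 196 values stayed near the reported one under another setting and 34 moved further, by over 1.5 times for a count. For the 26 named transcripts called in brain, the call was kept 541 times and lost 67 times over all settings together, and no value changed direction. Transcripts that no longer met the filter under a setting were not counted as lost. The cause was not tested. With TPM as deposited, 1322 members were called higher in brain (43.0%, against 40.3% of all genes) and 2 lower (0.065%, against 0.17%). Higher calls were 15 in gut (0.49%, against 1.33%) and 16 in liver (0.52%, against 1.09%). In lung they were 3 (0.098%, against 0.12%) and in skin 11 (0.36%, against 1.06%). The ratio of summed levels was then 2.66, and brain led for 64.9%. A pseudocount of 5 gave 120 higher (3.91%, against 6.28% of all genes) and 33 lower (1.07%, against 2.12%) in brain. In liver it gave 26 higher (0.85%, against 1.79%). A pseudocount of 0.1 gave 17 higher in gut (0.55%, against 1.36%) and 3 in heart (0.098%, against 0.36%). It gave 9 in lung (0.29%, against 0.66%) and 14 in skin (0.46%, against 1.21%). The fit of 6 organ means gave 126 lower in brain (4.10%, against 7.64%). It gave 74, 80, 86, 47 and 57 higher in gut, heart, liver, lung and skin, with the shares given above. Quantile normalization gave 121 lower in brain (3.94%, against 4.33%). The wider annotation rule, which adds jockey, K02A2.6 and ribonuclease H descriptions, gave 24 higher in heart (0.57%, against 0.72%).

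Leaving out each sample in turn gave 28 to 308 higher and 2 to 89 lower in brain, and 10 to 29 in gut, 0 to 17 in heart, 21 to 51 in liver, 7 to 17 in lung and 6 to 32 in skin. The lowest were reached without the p4 sample of the organ itself (lung: p6). Without the p4 heart, the heart fit rested on the p6 heart alone. Heart also fell to 5 without the p6 heart and to 9 without the p5 liver or the p6 lung, and skin to 12 without the p6 skin. These counts stand without the share of all genes, so they say nothing about the members in particular. The ratio of summed levels ranged from 0.91 to 1.31 and the share led by brain from 26.1% to 36.2%.

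With the animal as a replicate block by the titles, 289 members were higher in brain (9.41%, against 10.9% of all genes) and 84 lower (2.73%, against 3.51%). By the supplement 283 were higher (9.21%, against 10.8%) and 78 lower (2.54%, against 3.44%). Of 26 named transcripts called in brain, the block by title ended 1 call (TRINITY_DN250330_c0_g1, adjusted p = 0.0527 by limma) and that by the supplement 2 (the same and TRINITY_DN5340_c1_g1, adjusted p = 0.0622 and 0.0553 by limma).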
